A study of Mus musculus with 19 samples.

Results

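The comparison set the 7 embryonic stem cell lines of embryo 2 against the 5 lines of embryo 1, so that 12 of the 19 lines of the series entered it. Each line had been grown from 1 blastomere that was taken by micromanipulation from an 8-cell mouse embryo, and lines 2.1 to 2.7 and 1.1 to 1.5 were assigned to their embryos by their labels. All embryos came from mating B6CBAF1/J hybrids with each other, and all lines shared the culture: inactivated human foreskin fibroblasts as feeders, knockout serum replacement, leukemia inhibitory factor, the MEK inhibitor PD0325901 and the TGFβ receptor inhibitor SB431542. The feeders were removed before RNA was extracted, and poly-A RNA was sequenced with a stranded kit. The 7 lines of embryo 3 entered the model to share the estimate of the spread, and their levels are given beside those of embryos 2 and 1. Members are the autosomal genes with a mappable position, of which 18041 passed the filter on low counts among 18878 tested genes and 50541 autosomal genes in the table. Genes of chromosomes X and Y, of the mitochondrion and of unplaced IDs were tested and then set aside. Levels are in CPM, the usual depth-scaled unit of a gene's counts relative to its library total, with each library total scaled by its TMM factor. Calls required a fold change above 1.5 together with an adjusted p below 0.05, from the quasi-likelihood test of edgeR with Benjamini-Hochberg adjustment over all tested genes, and a log2 fold change is embryo 2 minus embryo 1.

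The lines of 1 embryo are sisters that began from cells of the same zygote. The spread between them is therefore a spread between cultures within an embryo, each side of the comparison is 1 embryo, and p measures whether these 2 sets of lines differ. Embryo of origin, genotype and sex cannot be told apart here. Mouse embryonic stem cells keep the pluripotency of the epiblast of the blastocyst, through transcription factors such as Oct4 (Pou5f1), Sox2 and Nanog. In mice bred from hybrid parents, each embryo inherits its own combination of the alleles of the founding strains. Processed pseudogenes are copies of spliced messenger RNA that were inserted back into the genome, and ribosomal protein genes are known for having many of them. Long noncoding RNA (lncRNA) genes make RNA that is not translated into protein.

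Total counts ranged from 33846569 to 48740941 in embryo 2 and from 36555470 to 46092184 in embryo 1, and 0 pairs of lines had identical values. The lines carried the markers of embryonic stem cells, with Pou5f1 at 551 to 1138 CPM, Sox2 at 323 to 411 CPM and Nanog at 221 to 595 CPM across the 12 lines. Markers of fibroblasts and stroma were also present, with Col1a1 at 111 to 530 CPM and Lum at 0.629 to 2.38 CPM, and none of the 5 passed the test between the embryos. Those of primitive endoderm (Gata4, Gata6, Sox17, Pdgfra) reached 5.86 CPM and those of trophectoderm (Cdx2, Elf5, Gata3, Hand1) reached 9.72 CPM, with Cdx2 at 0 in 1 line. Line 2.2 stood apart on chromosome 8, where its genes of at least 10 CPM lay at a median of 0.41 above the mean of the 12 lines on the log2 scale, while in the other medians of lines and autosomes the deviation was at most 0.19 in size. Without line 2.2, the 26 higher and 14 lower genes of chromosome 8 became 24 and 21. Of the genes set aside, 77 of 735 on chromosome X were higher and 7 lower in embryo 2, and 1 of 11 on chromosome Y was higher and 6 lower.

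Of the 18041 autosomal genes, embryo 2 had 319 with a higher and 407 with a lower level relative to embryo 1, or 4.02% of those tested (1.77% higher and 2.26% lower). The median log2 fold change of all autosomal genes was -0.01. Of the 726 called genes, 408 had no overlap between the 7 lines of embryo 2 and the 5 of embryo 1, and over all tested genes 650 did not overlap (3.6%). Changes of more than 4-fold were found in 101 of the 319 higher genes and 86 of the 407 lower ones.

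**Figure D1:**
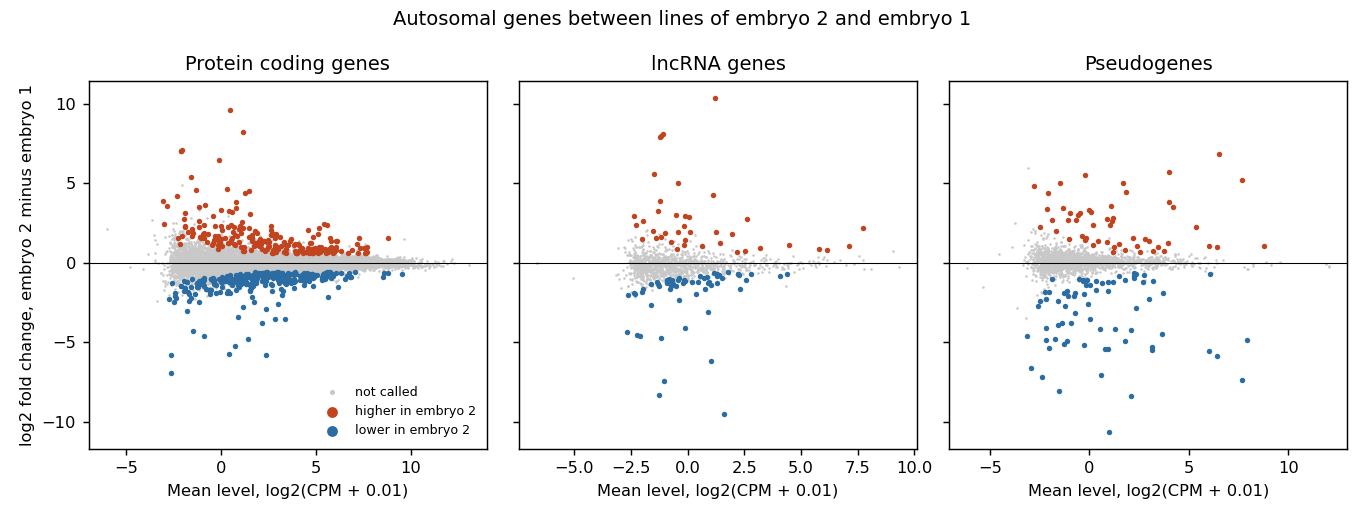
Each point is 1 tested autosomal gene, with its mean level over the 12 lines as log2(CPM + 0.01) on the horizontal axis and the log2 fold change of embryo 2 minus embryo 1 on the vertical axis. Coloured points were called, 216 higher and 269 lower in protein coding genes, 40 and 60 in lncRNA genes, 53 and 72 in pseudogenes, and at a mean of 10 CPM and over 11 of the 19 called pseudogenes lie beyond a 4-fold change.

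By gene type, protein coding genes were called least often of the 3 main types. Of 14445 tested, 216 were higher and 269 lower (3.36%), against 40 and 60 of 1204 lncRNA genes (8.31%) and 53 and 72 of 1845 pseudogenes (6.78%). Of 547 genes of other types, mostly transcripts still to be experimentally verified, 10 were higher and 6 lower (2.93%). The size of the change differed as well. Called protein coding genes had a median absolute log2 fold change of 1.13, called lncRNA genes of 1.46 and called pseudogenes of 2.40, and changes of over 4-fold made up 15.7%, 31% and 56.8% of the calls of these types. Among pseudogenes, processed ones supplied most calls, with 45 higher and 53 lower of 1549. These shares were not tested against each other.

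The share called varied with the level, and not alike in the 3 types. Of protein coding genes, 1.81% were called at a mean of 10 CPM and over, 6.41% at 1 to 10 CPM and 4.59% under 1 CPM. In pseudogenes the share was 14.3% at 10 CPM and over, where 12 of 133 were higher and 7 lower, 10.6% at 1 to 10 CPM and 4.48% under 1 CPM. For lncRNA genes it was 8.97%, 11.9% and 6.81% in the same order.

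**Figure D2:**
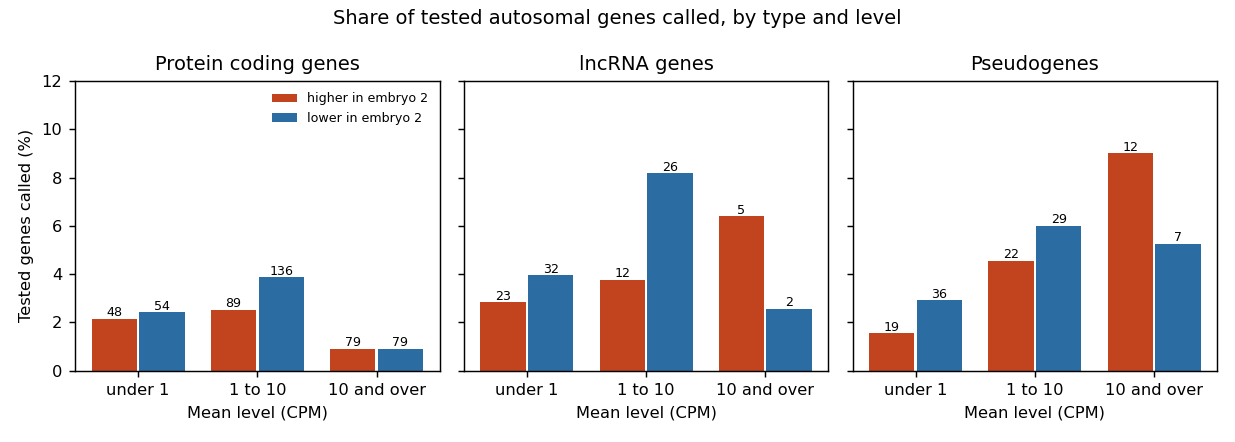
Bars give the percentage of tested autosomal genes called higher (left bar) or lower (right bar) in embryo 2 than in embryo 1, by gene type and by mean level in CPM over the 12 lines, with the number of genes above each bar. The bars of protein coding genes are shortest at 10 CPM and over (79 higher, 79 lower), while those of pseudogenes are tallest there for higher genes (12).

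Protein coding genes with the largest increases in embryo 2 were expressed at a few CPM and were near 0 in embryo 1. Afm (chromosome 5, 90666791 to 90701558 in GRCm39) encodes afamin, a secreted carrier protein of the albumin family. It lay between 1.64 and 3.04 CPM in embryo 2, with a median of 2.38 CPM, and had 0 counts in lines 1.1, 1.2, 1.3, 1.4 and 1.5. With 690 counts in embryo 2 and a floor of 3 counts over embryo 1, it was at least 160-fold higher in embryo 2 (adjusted p = 3.69e-10). Gc (chromosome 5, 89561689 to 89605757), the vitamin D binding protein of the same family, lay between 3.46 and 6.13 CPM in embryo 2 with a median of 4.56 CPM, against 0.0575, 0.238, 0.0777, 0.525 and 0.0898 CPM in lines 1.1 to 1.5. Its log2 fold change was 4.53 (SE 0.41, adjusted p = 1.66e-07), and no line of one embryo reached those of the other. Tmprss11f (chromosome 5, 86669757 to 86780283), a membrane-bound serine protease, had 1107 counts in embryo 2 and 2 in embryo 1, both in line 1.2, a ratio of 385 (95% exact interval 106 to 3180, counting error only).

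The 3 genes lie on chromosome 5, in an order of Tmprss11f, Gc and Afm. Of the 3 tested genes on each side of Afm, 3 were called. Mthfd2l, a mitochondrial enzyme of folate metabolism, was higher in embryo 2 at 1.74 to 3.26 CPM, against 0.373, 1.32, 0.492, 0.21 and 0.988 CPM in lines 1.1 to 1.5 (log2 fold change 1.75, SE 0.33, adjusted p = 0.00212). Cox18, which helps insert a subunit of cytochrome oxidase, was lower at 15.0 to 21.9 CPM in embryo 2, against 45.0, 33.4, 33.6, 34.3 and 29.9 CPM in embryo 1 (log2 fold change -0.88, SE 0.11, adjusted p = 9.7e-06). Gm9958 was also lower, while Ankrd17, Rassf6 and Parm1 did not pass the test. Genes that changed in opposite directions thus lay beside each other there.

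Further increases were found in Tktl2, Filip1, Elobl, Hfm1 and Lrrc31. Hfm1, a helicase that promotes crossovers in meiosis, lay between 1.79 and 3.11 CPM in embryo 2 with a median of 2.53 CPM, against 0.345, 0.194, 0.233, 0.131 and 0.382 CPM in lines 1.1 to 1.5 (log2 fold change 3.21, SE 0.27, adjusted p = 7.81e-08). Filip1, which binds filamin A, lay between 2.97 and 5.17 CPM, against at most 0.432 CPM in embryo 1 (log2 fold change 4.39, SE 0.61, adjusted p = 6.64e-05). Tktl2, a transketolase-like gene, Elobl, an elongin B-like gene, and Lrrc31, a leucine-rich repeat gene, had log2 fold changes of 4.64, 3.81 and 3.04, and none overlapped between the embryos.

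The 8 protein coding genes with the lowest log2 fold changes were Ccdc7a, Gm12666, Fyb, Capn11, Nlrp3, Ankrd31, C1s1 and Acss2. Ccdc7a (chromosome 8, 129460716 to 129792025), a coiled-coil protein gene, lay between 0.116 and 0.37 CPM in embryo 2 with a median of 0.162 CPM, against 12.7, 14.3, 8.88, 10.3 and 14.2 CPM in lines 1.1 to 1.5 (log2 fold change -5.78, SE 0.31, adjusted p = 2.6e-11). Of the 3 tested genes on each side of it, 1 was called. It was Itgb1, which encodes the integrin β1 chain, higher in embryo 2 by 0.62 on the log2 scale (SE 0.17, adjusted p = 0.038), and its call was lost without any one of lines 1.1, 1.2, 1.3, 1.4, 2.1, 2.2, 2.4 and 2.7, with adjusted p up to 0.108. Ankrd31 (chromosome 13, 96884756 to 97046547), which is needed for DNA breaks on the sex chromosomes in meiosis, lay between 1.08 and 2.43 CPM with a median of 1.98 CPM in embryo 2, against 12.04, 25.7, 18.5, 23.8 and 32.1 CPM in embryo 1 (log2 fold change -3.53, SE 0.23, adjusted p = 6.34e-10).

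Nlrp3 (chromosome 11, 59432394 to 59457782), the sensor of an inflammasome, lay between 0.208 and 1.46 CPM in embryo 2 with a median of 0.494 CPM, against 12.6, 8.08, 10.4, 10.8 and 5.86 CPM in lines 1.1 to 1.5 (log2 fold change -3.79, SE 0.49, adjusted p = 3.04e-05). C1s1, a protease of the first complement component, lay between 0.128 and 0.648 CPM, against 5.72, 3.24, 4.09, 5.17 and 1.71 CPM (log2 fold change -3.40, SE 0.34, adjusted p = 7.73e-07). Acss2, which makes acetyl-CoA from acetate, lay between 0.769 and 1.84 CPM, against 7.21, 10.54, 9.06, 12.4 and 13.1 CPM (log2 fold change -2.90, SE 0.29, adjusted p = 7.86e-07). In each of the 3, every line of embryo 2 was below every line of embryo 1. The remaining 3 genes, Gm12666, Fyb, an adaptor protein of T cell receptor signalling, and Capn11, a calpain protease, had log2 fold changes of -5.72, -5.24 and -4.78.

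**Figure D3:**
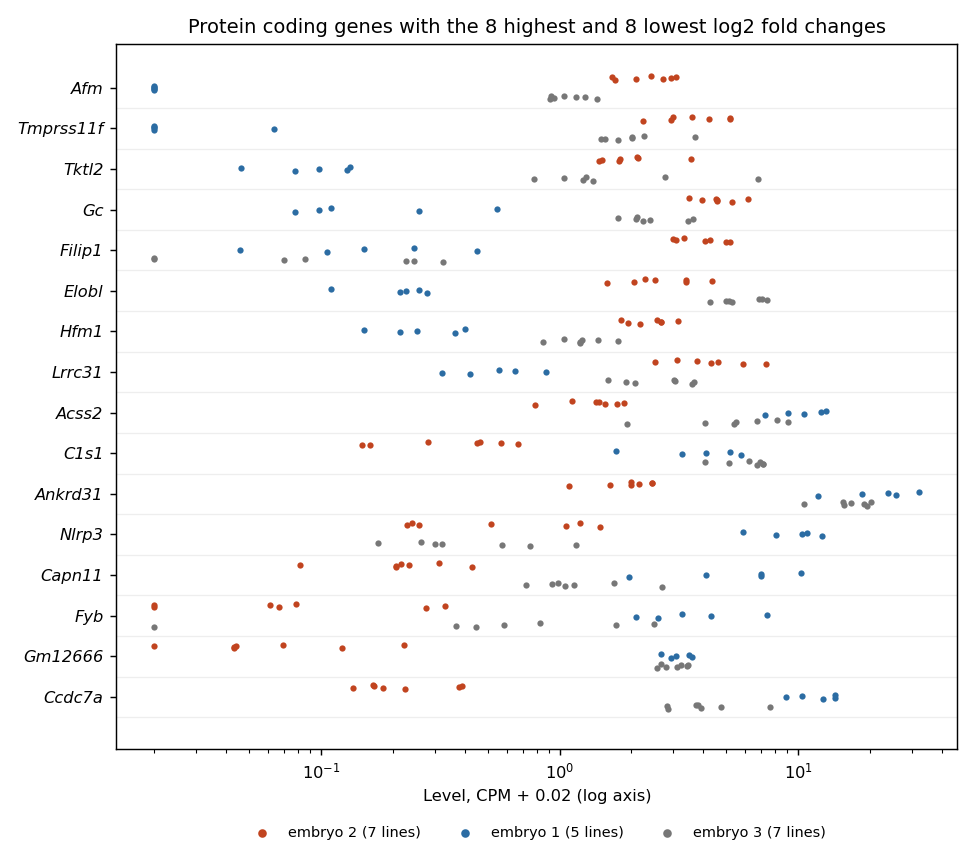
Each point is 1 line, with the level as CPM + 0.02 on a log axis, for the 8 protein coding genes with the highest and the 8 with the lowest log2 fold changes among called genes that did not overlap and averaged at least 1 CPM. Within each gene, embryo 2 is drawn above embryo 1 and embryo 3 below both, and Afm of embryo 1 lies at the left edge, at 0 counts in all 5 lines.

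Among abundant protein coding genes the changes were smaller. Rpl26, which encodes a protein of the large ribosomal subunit, had the highest CPM of the higher ones, at 534 to 753 CPM in embryo 2 with a median of 554 CPM, against 245, 190, 173, 219 and 184 CPM in lines 1.1 to 1.5 (log2 fold change 1.56, SE 0.10, adjusted p = 7.51e-10). Its value depends on a near-identical copy described with the pseudogenes. Glipr2 lay between 158 and 240 CPM in embryo 2, against 104, 108, 77.4, 76.4 and 144 CPM in embryo 1 (log2 fold change 0.95, SE 0.21, adjusted p = 0.00855). Gm4737 and Baiap2l1, an actin-binding protein of membrane protrusions, were higher by 0.90 and 1.01 on the log2 scale. The call of Baiap2l1 was lost without any one of lines 1.1 to 1.4 and 2.3 to 2.7, with adjusted p up to 0.109.

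Of the abundant lower genes, Tdgf1 encodes Cripto, a co-receptor of Nodal that marks pluripotent cells. It lay between 459 and 750 CPM in embryo 2 with a median of 583 CPM, against 1152, 859, 806, 1207 and 794 CPM in lines 1.1 to 1.5 (log2 fold change -0.70, SE 0.14, adjusted p = 0.00273). Spp1, which encodes the secreted phosphoprotein osteopontin, lay between 275 and 360 CPM with a median of 319 CPM, against 547, 531, 462, 425 and 465 CPM (log2 fold change -0.65, SE 0.09, adjusted p = 0.00011). The embryos did not overlap in either gene. Adam23, a surface protein of the disintegrin family, and Dclk2, a kinase that binds microtubules, were lower by 0.88 and 0.89 on the log2 scale.

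Of lncRNA genes, C330004P14Rik (chromosome 10, 15667523 to 15682813) had 1149 counts in embryo 2, at 2.58 to 6.84 CPM with a median of 3.74 CPM, and 0 counts in every line of embryo 1. It was at least 266-fold higher in embryo 2, taking 3 counts over embryo 1 as the floor. C78283 and Gm20548 were higher by 4.24 and 2.88 on the log2 scale. In the other direction, Gm48168 (chromosome 13, 65639600 to 65651644) had 2 counts in embryo 2, both in line 2.5, and 1473 in embryo 1, at 5.72, 6.67, 7.58, 9.37 and 7.07 CPM in lines 1.1 to 1.5. The ratio of embryo 1 over embryo 2 was 1060 (95% exact interval 293 to 8750, counting error only). Gm26754 (chromosome 13, 66392016 to 66616129) reached 0.116 CPM in embryo 2, against 3.27, 5.10, 4.56, 6.85 and 4.31 CPM in embryo 1 (log2 fold change -6.16, SE 0.38, adjusted p = 3.86e-10), and Gm3716 was lower by 3.07 on the log2 scale.

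Among called genes with a mean of 10 CPM and over, a change of over 4-fold was found in 11 of 19 pseudogenes and 6 of 158 protein coding genes. Of the 125 called pseudogenes, 121 had a closest protein coding gene by sequence, and in 26 the aligned bases were at least 99% identical. The median identity was 98.1% in called and 96.3% in other tested pseudogenes. Read pairs of 51 bases that fall where copy and coding gene are identical cannot be placed from their sequence, and RSEM divides them by estimated shares, so that the counts of near-identical copies are uncertain. To show how little separates them, 60 bases are given for 4 of the pseudogenes above 100 CPM in either embryo, chosen after their values were seen, beside the matching bases of the coding sequence of the closest gene (GRCm39, GENCODE M39), with the bases that differ in capitals. Gm15772 is from chr5:3286577-3286636 on the forward strand, Rpl15-ps6 from chr15:52341417-52341476, Rpsa-ps10 from chr3:149778937-149778996 and Rps3a2 from chr14:88360560-88360619, these 3 on the reverse strand.
Gm15772: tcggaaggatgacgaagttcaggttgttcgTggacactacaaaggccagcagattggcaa
Rpl26: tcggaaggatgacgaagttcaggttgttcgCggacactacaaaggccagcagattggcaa
Rpl15-ps6: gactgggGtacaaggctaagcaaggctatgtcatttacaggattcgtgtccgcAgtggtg
Rpl15: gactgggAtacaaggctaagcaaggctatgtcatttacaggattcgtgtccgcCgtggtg
Rpsa-ps10: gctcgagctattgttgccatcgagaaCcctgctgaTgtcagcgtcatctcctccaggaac
Rpsa: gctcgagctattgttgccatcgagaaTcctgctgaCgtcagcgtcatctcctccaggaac
Rps3a2: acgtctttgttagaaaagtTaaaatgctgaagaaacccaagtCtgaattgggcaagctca
Rps3a1: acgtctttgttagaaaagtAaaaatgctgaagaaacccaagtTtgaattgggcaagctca

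Gm15772 was low in embryo 2 and high in embryo 1. It lay between 2.21 and 5.54 CPM in embryo 2 with a median of 2.72 CPM, against 569, 447, 419, 529 and 477 CPM in lines 1.1 to 1.5 (log2 fold change -7.34, SE 0.20, adjusted p = 1.65e-16). It differs from Rpl26 at 2 of 438 aligned bases, and 73.7% of all windows of 51 bases are identical. That share is of single windows, and the share of read pairs that cannot be placed is not given here. Rpl26 went the other way, at 598 ± 84.1 CPM in embryo 2 (SD, n = 7) and 202 ± 29.5 CPM in embryo 1 (SD, n = 5). The sum of Rpl26 and its 5 tested pseudogenes was 602 ± 84.7 CPM in embryo 2 and 692 ± 89.4 CPM in embryo 1, and with their counts added together the log2 fold change was -0.20 (SE 0.09, adjusted p = 0.221). The increase of Rpl26 was thus measured only where the copy was counted apart.

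Rpl15-ps6 was the reverse, at 150 to 184 CPM in embryo 2 with a median of 156 CPM, against 0.919, 1.19, 1.63, 1.26 and 1.77 CPM in lines 1.1 to 1.5 (log2 fold change 6.86, SE 0.14, adjusted p = 1.35e-18). It differs from Rpl15, a gene of the large ribosomal subunit, at 2 of 612 bases. Rpl15 was lower by 0.46 in log2 fold change, 640 ± 37.95 CPM in embryo 2 and 883 ± 173 CPM in embryo 1, below the fold threshold (adjusted p = 0.00393). Over all tested autosomal pseudogenes, 6.78% were called in either direction. Of the 14 tested pseudogenes closest to Rpl15, 8 were higher and 2 lower in embryo 2, among them Rpl15-ps2 (26.7 ± 2.83 against 0.511 ± 0.193 CPM) and Gm8885 (5.46 ± 0.676 against 0.17 ± 0.0884 CPM). Summed over the family, the level was 842 ± 52.9 CPM in embryo 2 and 899 ± 176 CPM in embryo 1, with a log2 fold change of -0.10 for the added counts (SE 0.10, adjusted p = 0.626).

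Copies and coding genes of 3 further families are given next. Rpsa-ps10, which differs from Rpsa at 6 of 885 bases, lay between 309 and 400.5 CPM in embryo 2 with a median of 338 CPM, against 10.7, 7.41, 8.85, 10.3 and 8.98 CPM in lines 1.1 to 1.5 (log2 fold change 5.21, SE 0.14, adjusted p = 2.35e-16). Rpsa, the laminin receptor protein of the small ribosomal subunit, was at 1443 ± 152 CPM in embryo 2 and 2018 ± 234 CPM in embryo 1, and the added counts had a log2 fold change of -0.18 (SE 0.08, adjusted p = 0.188). Rps3a2 and Rps3a3 were lower, at 3.26 ± 0.737 and 3.42 ± 1.57 CPM in embryo 2, against 153 ± 13.9 and 201 ± 23.1 CPM in embryo 1. Rps3a1, the coding gene of the small subunit closest to both, was at 1149 ± 72.7 CPM in embryo 2 and 954 ± 95.3 CPM in embryo 1, and its log2 fold change of 0.27 (adjusted p = 0.015, below the fold threshold) turned to -0.18 for the added counts (SE 0.07, adjusted p = 0.117). Gm15459, closest to the heat shock chaperone gene Hspa8 with 5 differences in 1941 bases, was at 19.5 ± 2.90 CPM in embryo 2 and 560 ± 110 CPM in embryo 1. Hspa8 itself did not pass the test, at 4939 ± 490 CPM in embryo 2 and 4142 ± 794 CPM in embryo 1 (log2 fold change 0.25, adjusted p = 0.192), and the added counts of that family had a log2 fold change of 0.08 (adjusted p = 0.751).

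**Figure D4:**
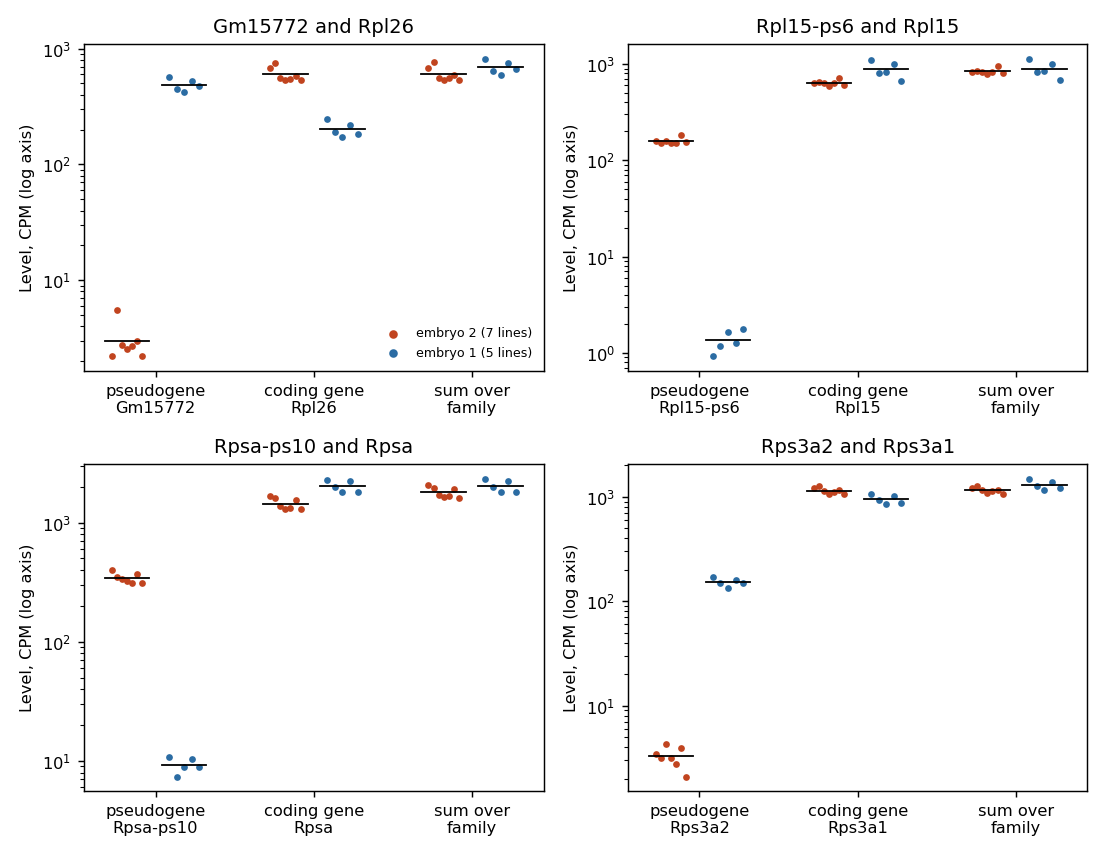
Each panel gives a pseudogene, its closest protein coding gene and the sum of that gene with all its merged pseudogenes, in CPM on a log axis, with 1 point per line, embryo 2 left of embryo 1 and a bar at the mean. Gm15772 and Rps3a2 are low in embryo 2 and Rpl15-ps6 and Rpsa-ps10 are low in embryo 1, while the family sums lie close together.

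Of 74 coding genes with at least 1 called pseudogene that was closest to them and could be added (identity of at least 90%, cover of at least 80%), 6 were called as counted and 5 after the counts of the copies had been added to them. Over all tested autosomal protein coding genes, 3.36% were called, and no test compared these shares. The protein coding calls changed little by this, with 477 of 485 shared and 482 called in all. In other families several copies moved in the same direction while the coding gene was not called. Most of the families named here are among those with the most called copies. Over all tested autosomal pseudogenes, 6.78% were called in either direction. Of 7 tested pseudogenes closest to Rps15a, a gene of the small ribosomal subunit, 6 were lower in embryo 2, among them Rps15a-ps8, which reached 0.0715 CPM in embryo 2 and stood at 5.49, 2.25, 3.65, 3.20 and 2.99 CPM in embryo 1. Of those of the polyamine enzyme gene Odc1, 3 of 5 were higher, Gm7993 among them at 26.4 ± 3.45 CPM in embryo 2 and 1.91 ± 0.284 CPM in embryo 1, and all 3 tested copies closest to Tma7 were higher. The 3 tested copies closest to Hmgn2, which encodes a nucleosome-binding protein, were lower, while Hmgn2 itself had a log2 fold change of 0.44 (adjusted p = 0.00805), below the fold threshold. 2210409E12Rik is closest to Elobl and lies near it on chromosome 11, and both were higher, by 4.46 and 3.81 on the log2 scale. Of 72 tested pseudogenes closest to the glycolytic enzyme gene Gapdh, 2 were higher and 0 lower, a smaller share than the 6.78% of all tested pseudogenes. Copies of 1 family lie on different chromosomes, as Rpl15-ps6 (chromosome 15), Rpl15-ps2 (chromosome 9) and Gm8885 (chromosome 1) show. Their aligned bases are 99.7%, 98.7% and 96% identical to Rpl15. Reads may thus be divided among the copies of a family as well, and these copies are not independent of each other.

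Gm12245 (chromosome 11) and Gm4322 (chromosome 1) are both closest to Bex4, a gene of chromosome X. Their aligned bases are 98.9% and 99.3% identical to Bex4. Reads may thus be divided between these copies, and their levels are not independent of each other. Gm12245 had 0 counts in embryo 2 and 963 in embryo 1, at 5.08, 5.25, 4.63, 5.49 and 3.48 CPM in lines 1.1 to 1.5, which is at least 461-fold lower in embryo 2 with a floor of 3 counts over its lines. Gm4322 reached 0.0925 CPM in embryo 2, against 10.46, 10.9, 9.97, 11.0 and 7.86 CPM in embryo 1 (log2 fold change -8.37, SE 1.03, adjusted p = 1.32e-05). In embryo 3 both differed from line to line, and in the same lines. Gm4322 stood at 1.53, 3.49, 9.12, 10.99, 0, 0.57 and 6.43 CPM in lines 3.1 to 3.7 and Gm12245 at 0.19, 0.83, 6.09, 6.597, 0, 0.22 and 3.87 CPM. Bex4 itself was at 69.1 ± 8.55 CPM in embryo 2, 57.3 ± 9.35 CPM in embryo 1 and 58.8 ± 7.45 CPM in embryo 3.

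The lines of embryo 3, which took no part in the fold change, were set on a scale between embryos 2 and 1. With the mean of embryo 1 set to 0% and that of embryo 2 to 100%, embryo 3 was above 75% in 94, under 25% in 83 and between them in 104 of the 281 called genes that did not overlap and averaged at least 1 CPM. These limits were chosen after values had been seen. Of the 54 pseudogenes among them, 18 were above 75%, 28 under 25% and 8 between, and of 195 protein coding genes 58, 47 and 90. The outer classes have no far limit, and they hold genes well outside both embryos, such as Elobl and 2210409E12Rik at 219%, Dclk2 at 136% and C1s1 at -60.3%. Some genes stood close to the middle: C330004P14Rik at 51.5%, Gc at 52%, Acss2 at 51.5%, Gm6969 at 48.3%, Afm at 46% and Hfm1 at 45.6%. Gm6969, closest to Cox7a2l, was at 0.462 ± 0.188 CPM in embryo 2, 20.8 ± 2.72 CPM in embryo 1 and 10.96 ± 1.26 CPM in embryo 3. In embryo 3 the level of Rpl15-ps6 was 187 ± 12.2 CPM and that of Rps3a2 was 159 ± 6.17 CPM.

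Called genes were spread over all autosomes, with some runs of neighbours. The share called ranged from 2.63% on chromosome 2 to 5.96% on chromosome 5, where 31 genes were higher and 41 lower. Chromosome 13 had 11 higher and 35 lower of 832 tested genes (5.53%, against 4.02% of all autosomal genes). Of 332 intervals of 5 Mb with at least 20 tested genes, the one with the most calls was on chromosome 13 between 65 and 70 Mb, with 15 of 105 called (14.3%), 14 of them lower. They comprised 8 lncRNA genes, 6 pseudogenes and 1 protein coding gene. Gm48168 and Gm26754 lie in it, as does 4933433G19Rik, a lncRNA gene with 0 counts in embryo 2 and 199 in embryo 1, at least 95.4-fold lower by the floor of 3 counts over embryo 2. The protein coding one, Zfp998, a zinc finger gene, was at 31.1 ± 5.41 CPM in embryo 2 and 64.4 ± 4.75 CPM in embryo 1 (log2 fold change -1.05, SE 0.12, adjusted p = 3.19e-06). 4933433G19Rik and Zfp998 were chosen after their values were seen. On chromosome 11 between 55 and 60 Mb, 13 of 63 genes were called (20.6%), 6 higher and 7 lower, Nlrp3, Sparc and Gm12245 among them. On chromosome 5 between 110 and 115 Mb, 10 of 78 were called (12.8%), all lower, with log2 fold changes from -2.35 to -0.68. The intervals were picked by their counts, and no test was made of them. By share, chromosome 5 between 70 and 75 Mb stood above them, with 8 of 28 called (28.6%).

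Pluripotency genes differed in a few members, most of them lower in embryo 2. Of 10 tested core pluripotency genes, Tdgf1 alone was called (10%, against 4.02% of all autosomal genes), with a median log2 fold change of -0.09 over the list. Of 21 naive pluripotency genes, 4 were lower and 1 higher (23.8%, against 4.02% of all autosomal genes), with a median of -0.26. Zfp42 (Rex1), a zinc finger protein of naive cells, lay between 240 and 307 CPM in embryo 2 with a median of 271 CPM, against 613, 557, 525.7, 509 and 256 CPM in lines 1.1 to 1.5 (log2 fold change -0.87, SE 0.14, adjusted p = 0.000395). Line 1.5 was thus within the range of embryo 2, and the other lines of embryo 1 were above it. Dppa3, which protects methylation in the zygote, was the higher one, at 69.0 to 83.7 CPM with a median of 79.1 CPM, against 42.7, 51.8, 37.3, 37.4 and 45.6 CPM (log2 fold change 0.85, SE 0.21, adjusted p = 0.0153), and its adjusted p was 0.0508 without line 1.4. Tcl1, a co-activator of Akt, and Dppa5a, an RNA-binding protein of pluripotent cells, had log2 fold changes of -0.73 and -0.66. The call of Tcl1 was lost without any one of lines 1.1 to 1.4, 2.2, 2.4, 2.6 and 2.7 (adjusted p up to 0.132) and that of Dppa5a without any one of lines 1.1, 1.3, 1.4, 2.2 and 2.4 to 2.7 (up to 0.153).

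Of 20 genes of formative and primed pluripotency, only Eomes was called. Eomes, a T-box factor of early lineages, lay between 1.67 and 6.46 CPM in embryo 2 with a median of 4.00 CPM, against 8.85, 9.26, 11.8, 14.4 and 6.53 CPM in lines 1.1 to 1.5 (log2 fold change -1.40, SE 0.25, adjusted p = 0.00147). Of 18 genes of cells that resemble the 2-cell embryo, only Pramel7 was called, which was higher at 2.47 to 7.31 CPM, against 0.603, 1.49, 2.72, 1.42 and 0.157 CPM (log2 fold change 1.99, SE 0.44, adjusted p = 0.00792). Of 23 germline genes that methylation silences, only Zfp42 was called. Of 18 genes listed with the writers and erasers of DNA methylation, only Dppa3 was called, which protects methylation and is neither a writer nor an eraser. Of 23 histone genes, only H2ac6 was called, lower by 1.21 on the log2 scale. Without any one line other than 1.3 and 1.4 it lost the call (adjusted p up to 0.164). In the order given, these single calls are 5%, 5.56%, 4.35%, 5.56% and 4.35% of their lists. They are near the 4.02% of all autosomal genes that were called.

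Of 16 tested trophectoderm genes, Krt8 and Krt18 were higher and Eomes was lower (18.8%, against 4.02% of all autosomal genes). The median log2 fold change over the list was 1.14, with 9 higher and 1 lower at an unadjusted p under 0.05. The share of all autosomal genes at that unadjusted cutoff is not given here. The lineage factors Cdx2, Elf5, Gata3, Hand1 and Gata2 did not pass the test, with adjusted p from 0.0899 for Gata2 to 0.179 for Elf5. Krt8, a keratin of simple epithelia, lay between 11.04 and 136 CPM in embryo 2 with a median of 66.4 CPM, against 5.11, 19.5, 13.3, 6.70 and 15.5 CPM in lines 1.1 to 1.5 (log2 fold change 2.44, SE 0.63, adjusted p = 0.0235). Its partner Krt18 lay between 6.87 and 110 CPM with a median of 55.3 CPM, against 6.20, 13.7, 10.7, 5.99 and 21.3 CPM (log2 fold change 2.21, SE 0.62, adjusted p = 0.0372). Lines 2.1 and 2.6 lay within the range of embryo 1 for both. Krt8 lost its call without any one of lines 1.1, 1.4 and 2.4 (adjusted p up to 0.07), and Krt18 without any one of lines 1.1 to 1.4, 2.3, 2.4, 2.5 and 2.7 (up to 0.102). The summed level of the list ranged from 191 to 504 CPM in embryo 2 and from 124 to 236 CPM in embryo 1.

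Of 44 imprinted genes, which are expressed from the allele of 1 parent, 5 were higher and 1 lower in embryo 2 (13.6%, against 4.02% of all autosomal genes, with a median log2 fold change of 0.21). Of these 6 calls, 4 were lost when single lines were left out, those of Igf2, Airn, Dlk1 and Ddc. Sfmbt2, a Polycomb gene, lay between 58.4 and 128 CPM with a median of 91.6 CPM, against 21.5, 41.9, 42.7, 29.6 and 45.8 CPM in lines 1.1 to 1.5 (log2 fold change 1.35, SE 0.27, adjusted p = 0.00314), with no overlap. H19, a noncoding RNA of the growth-control domain it shares with Igf2, lay between 90.8 and 571 CPM with a median of 313 CPM, against 22.5, 87.4, 72.0, 17.1 and 151 CPM (log2 fold change 2.17, SE 0.53, adjusted p = 0.016). Igf2, a fetal growth factor, was at 72.2 ± 37.5 CPM in embryo 2 and 13.6 ± 11.2 CPM in embryo 1 (log2 fold change 2.40, SE 0.70, adjusted p = 0.0474), and lost its call without any one of lines 1.1, 1.3, 1.4, 1.5, 2.2 to 2.5 and 2.7 (up to 0.123). H19 and Igf2 are expressed from opposite parental alleles. Within embryo 2, lines 2.1 and 2.6 were the lowest for both and for Krt8 and Krt18. H19 stood at 161 and 90.8 CPM, Igf2 at 19.6 and 25.8 CPM and Krt8 at 13.1 and 11.04 CPM in these lines. For the keratin Krt19, line 2.1 at 20.5 CPM was above line 2.5 at 17.7 CPM. Line 2.4 was the highest of embryo 2 for H19, Krt8 and Krt18. The part of the lines high in Krt8 and Krt18 in the difference of H19 and Igf2 was not tested.

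Dlk1 and the noncoding RNA Airn were higher by 1.09 and 1.92 on the log2 scale. Dlk1 lost its call without any one of lines 1.1, 1.3, 1.4 and 2.4 (adjusted p up to 0.0612), and Airn without any one of lines 1.1 to 1.4, 2.3 to 2.5 and 2.7 (up to 0.112). Ddc, an enzyme of dopamine synthesis, was lower, at 6.86 ± 1.74 CPM in embryo 2 and 12.7 ± 4.33 CPM in embryo 1 (log2 fold change -0.88, SE 0.22, adjusted p = 0.0215), and lost its call without line 1.1 or line 1.3 (up to 0.0716). Tcl1, Dppa5a, Dlk1, Airn and Igf2, like the closest coding genes of the pseudogenes other than Rpl26 and Elobl, were chosen after their values were seen.

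**Figure D5:**
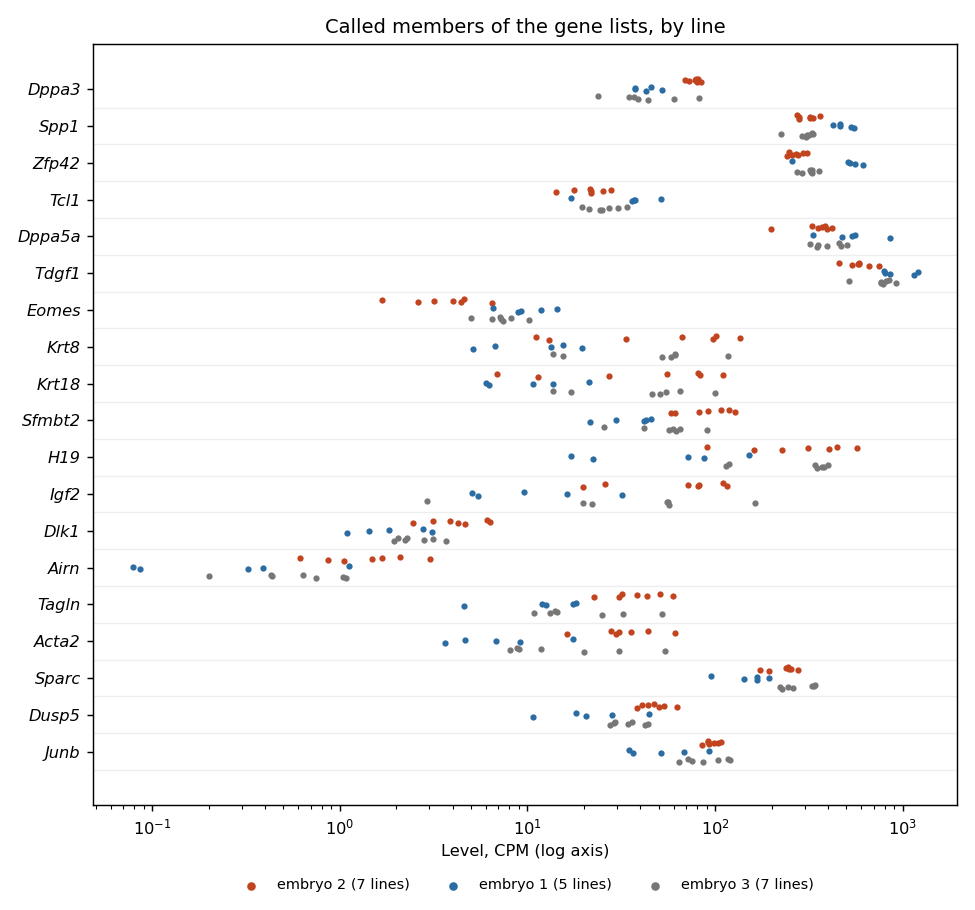
Levels in CPM on a log axis for called members of the gene lists, with 1 point per line, embryo 2 above embryo 1 and embryo 3 below both within each gene. Krt8, Krt18, H19 and Igf2 spread widely within embryo 2, while Dppa3 and Sfmbt2 do not overlap between embryos 2 and 1 and Zfp42 overlaps through line 1.5 alone.

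Of 29 fibroblast and stromal genes, 3 were higher and 0 lower (10.3%, against 4.02% of all autosomal genes, median 0.18). The called members were the smooth muscle genes Tagln and Acta2 and 1 matrix gene, Sparc. The collagen genes Col1a1, Col1a2 and Col3a1 did not pass the test, with log2 fold changes of -0.25, 0.09 and -0.35. Tagln (transgelin) lay between 22.5 and 59.6 CPM with a median of 38.4 CPM, against 4.60, 12.6, 11.9, 17.4 and 18.1 CPM in lines 1.1 to 1.5 (log2 fold change 1.61, SE 0.39, adjusted p = 0.0149). Acta2 (smooth muscle actin) was higher by 2.07 on the log2 scale, with an adjusted p of 0.0513 without line 1.4, and Sparc by 0.60, with its call lost without any one of lines 1.2, 1.5, 2.3, 2.4 and 2.5 (up to 0.0607). The summed level of the list ranged from 2173 to 3209 CPM in embryo 2 and from 2459 to 2960 CPM in embryo 1, and these ranges overlapped. With the mean of the 5 stromal markers as a covariate, an alternative added after the data were examined, 437 genes were higher and 583 lower. Of 18 primitive endoderm genes, Sparc was higher and Hnf4a lower (11.1%, against 4.02% of all autosomal genes). Hnf4a, a nuclear receptor, was lower by 1.03 on the log2 scale, its call lost without any one of lines 1.2, 1.4, 2.3, 2.4, 2.5 and 2.7 (up to 0.0732).

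Of 25 targets and feedback inhibitors of the MAPK pathway, which PD0325901 blocks, 2 were higher and 0 lower (8%, against 4.02% of all autosomal genes), with a median log2 fold change of 0.23. Dusp5, a phosphatase that acts on ERK, lay between 38.4 and 62.3 CPM with a median of 47.5 CPM, against 10.7, 20.5, 28.2, 44.5 and 18.03 CPM in lines 1.1 to 1.5 (log2 fold change 0.98, SE 0.24, adjusted p = 0.0162), and lost its call without lines 1.5 and 2.4 together (adjusted p = 0.0614). Junb, a subunit of AP-1, was higher by 0.76 on the log2 scale and lost its call without any one of lines 1.1, 1.2, 1.5, 2.3, 2.4 and 2.6 (adjusted p up to 0.0891). Line 1.4 was the highest of embryo 1 for both. Of 18 genes of mesoderm and the germ layers, only Neurog1, a neurogenic factor, was called (5.56%, near the 4.02% of all autosomal genes). It was higher by 1.66 on the log2 scale, and without any one of lines 1.3, 1.5 and 2.3 to 2.6 it lost the call (up to 0.0666).

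In 8 lists no gene was called by edgeR: glycolysis, other HIF-1 targets, sterol synthesis, the ATF4 response, p53 targets, MHC class I and antigen presentation, interferon-stimulated genes and the respiratory chain. Of their 178 tested members, 33 had an unadjusted p under 0.05 and DESeq2 called 1. Their median log2 fold changes ranged from -0.40 for the HIF-1 targets to 0.13 for the ATF4 response. Of 25 respiratory chain genes, 10 were lower and 0 higher at an unadjusted p under 0.05. The share of all autosomal genes at that unadjusted cutoff is not given here, so no excess can be read from these counts.

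The share of all counts that a gene type took did not pass the exact permutation test over the 12 lines (two-sided, 792 relabelings, adjusted over 3 shares). These shares are over all genes, those of chromosomes X and Y included. Pseudogenes took 2.15 ± 0.189% of counts in embryo 2 (SD, n = 7) and 2.37 ± 0.413% in embryo 1 (SD, n = 5), a difference of -0.22 percentage points (exact permutation p = 0.235, adjusted p = 0.235). Genes of lncRNA took 0.697 ± 0.0377% in embryo 2 and 0.634 ± 0.0764% in embryo 1 (exact permutation p = 0.096, adjusted p = 0.144), and protein coding genes 96.0 ± 0.406% and 95.5 ± 0.343% (exact permutation p = 0.0505, adjusted p = 0.144). Without line 1.5, the pseudogene share differed by -0.39 points (exact permutation p = 0.0121, adjusted p = 0.0181), the lncRNA share by 0.0953 points (exact permutation p = 0.00606, adjusted p = 0.0181) and the protein coding share by 0.574 points (exact permutation p = 0.0364, adjusted p = 0.0364). Without line 1.2, 2.2 or 2.6, the protein coding share had an unadjusted exact permutation p of 0.0242, 0.0433 and 0.0433, and an adjusted p of 0.0726, 0.13 and 0.13. The values without single lines are over all genes as well. With autosomal genes alone, the lncRNA difference fell from 0.063 to 0.027 points (exact permutation p = 0.376, adjusted p = 0.376). The pseudogene difference was then -0.235 points (exact permutation p = 0.25) and the protein coding difference 0.485 points (exact permutation p = 0.0682).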

How the data were processed

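RNA-seq counts of 19 lines were analysed, with the embryo taken from the labels. The authors aligned reads with STAR and deposited gene counts from RSEM 1.3.0 (GRCm39, GENCODE M27), which were whole numbers. Positions came from GENCODE M39 by gene ID (54749 of 55416 matched). Counts were tested with edgeR 4.0.16 in R 4.3.3 (TMM, filterByExpr, quasi-likelihood test, embryo as the only term, all 19 lines). The same fit was also run on counts simulated from the levels and spread of these data. Pseudogenes were matched to protein coding transcripts with BLAST 2.17.0, and in an added alternative 1524 of them (identity of at least 90%, cover of at least 80%) were added to 748 genes before the fit. Shares were tested by exact permutation (scipy 1.17.1). Depth per line was at least 33846569 counts, and intervals and floors cover counting error only. The alternatives were DESeq2 1.42.0, other scaling, filters and thresholds, fewer lines, a replicate block and a stromal covariate.

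Named genes were called, did not overlap and averaged at least 1 CPM: the 8 highest and 8 lowest log2 fold changes of protein coding genes, 3 and 3 of lncRNA genes and 5 and 5 of pseudogenes, the 4 smallest p and the 4 highest CPM (protein coding) in each direction. Up to 3 called members of each list by p, and 3 tested neighbours on each side of Afm and Ccdc7a, were added. The members and lists were chosen with earlier results of these data known.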

Additional observations from a re-analysis of the deposited data

Results flagged for a closer look

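Of 156 groups of lines examined over the named genes and others given with values, 11 had 1 line far from the others, where chance gives about 1 in 20. Whether 11 exceeds that rate was not tested. The measure is the gap of that line to its nearest neighbour divided by the range of the embryo. Where only 1 line of an embryo has counts, as for Tmprss11f and Gm48168 below, the ratio is 1.0 by construction. The chance rate does not apply to such groups. Line 2.6 was the one in 5 of the 11 groups. It was highest for C330004P14Rik (6.84 CPM, next 4.01 CPM, ratio 0.665), Rpl15-ps6 (184 CPM, next 158 CPM, 0.765), Baiap2l1 (300.0 CPM, next 265 CPM, 0.618) and Gm4737 (280 CPM, next 223 CPM, 0.665), and lowest for Dclk2 (45.7 CPM, next 79.1 CPM, 0.589). Line 2.5 was highest for Tktl2 (3.54 CPM, next 2.11 CPM, 0.679) and alone had counts of Gm48168 (0.0411 CPM, ratio 1.0).

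Line 2.2 was highest in embryo 2 for Gm15772 (5.54 CPM, next 2.99 CPM, 0.764) and lowest for Dppa5a (197.5 CPM, next 329 CPM, 0.596). In embryo 1, line 1.1 was highest for Gm7993 (2.41 CPM, next 1.80 CPM, 0.929), and line 1.2 alone had counts of Tmprss11f (0.0432 CPM, ratio 1.0). All of these genes but Baiap2l1 and Dppa5a kept their call in each fit that left out 1 line.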

How the results depend on the processing

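The 319 higher and 407 lower genes became 471 and 551 with DESeq2, 323 and 405 with RLE size factors, 302 and 350 with no filter, 248 and 311 at a minimum of 1 CPM, 435 and 578 with no fold threshold, and 270 and 297 in the 12 lines alone. Tested against the fold threshold, 108 were higher and 123 lower, with 106 protein coding genes, 83 pseudogenes and 37 lncRNA genes. The minimum of 1 CPM left 58 lncRNA genes, and no fold threshold gave 764 protein coding genes. With 1 line left out, 224 (without line 2.4) to 458 (without line 1.5) were higher and 285 (without line 1.4) to 499 (without line 2.1) lower, with 329 to 662 protein coding genes, 109 to 131 pseudogenes and 71 to 119 lncRNA genes. The differences in share, over all genes, ran from -0.39 to -0.14 points for pseudogenes, 0.0466 to 0.0953 for lncRNA genes and 0.364 to 0.583 for protein coding genes. Without lines 1.5 and 2.4 the pseudogene share differed by -0.39 points (exact permutation p = 0.019) and the lncRNA share by 0.0857 (exact permutation p = 0.00952). Adding pseudogene counts to the closest coding gene left 19 pseudogene calls, since fewer were tested, and reversed Rpl26 (-0.20) and Rps3a1 (-0.18). Of 61 named genes, 50 kept their call in every fit without 1 line. Of 75 genes given with values, 30 lost the call when tested against the fold threshold, among them Krt8, H19, Sfmbt2, Zfp42, Dppa3, Tdgf1, Spp1 and Cox18, and 9 in the 12 lines alone (Krt18, Neurog1, Ddc, H2ac6, Tcl1, Dppa5a, Dlk1, Airn and Itgb1). Without lines 1.5 and 2.4, 8 lost it (Krt8, Krt18, Neurog1, Dusp5, Junb, Sparc, H2ac6 and Igf2), and with no filter 2 did (H2ac6 and Airn). The cause was not tested for other changes.

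Line numbers do not pair the lines: deviations of lines with the same number correlated at 0.02, -0.10, 0.26, 0.03 and -0.28 for numbers 1 to 5, and no line correlated best with its own number. With the number as a replicate block over 10 lines, 121 genes were higher and 112 lower, with 133 protein coding genes, 68 pseudogenes and 29 lncRNA genes, and 20 of the 75 lost the call. With no block the same 10 lines gave 172 and 169, with 200 protein coding and 47 lncRNA genes, and 15 of the 75 lost the call.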
